A study of Mus musculus with 62 samples.

Results

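The effect of chronic stress common to 2 brain regions, one of the cortex (prefrontal cortex, PFC) and one of the ventral striatum (nucleus accumbens, NAc), was described from all 62 RNA libraries of the study, 31 from mice exposed to multimodal chronic restraint stress (mCRS) and 31 from unstressed controls (CTR). Every library was a member, chosen by its label alone, and mCRS was set against CTR with the brain region as a covariate and no interaction term. The PFC gave 15 CTR and 15 mCRS libraries and the NAc 16 CTR and 16 mCRS libraries. All mice were wild-type C57BL/6j of 15 weeks, restrained daily under changing conditions or left unstressed, and tissue was taken some days after the last stress session. The paper describes 16 mice per group, with PFC and NAc taken from one hemisphere of each. Mice that gave a PFC library therefore also gave a NAc library. Which libraries belong together is not stated, so all were fitted as independent. P-values over both regions rest on 31 libraries per group from 16 mice, and they measure the spread between libraries, not between mice.

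The PFC holds mostly glutamatergic projection neurons that steer emotion and action, whereas the NAc holds GABAergic projection neurons that receive dopamine and cortical input. Chronic stress acts on both through glucocorticoid hormones, which bind the glucocorticoid receptor, a transcription factor found in nearly all brain cells. The brain lives on oxidative phosphorylation (OXPHOS), in which respiratory complexes I to IV pass on electrons and build a proton gradient that complex V uses to make ATP. Its subunits are encoded by nuclear DNA and by mitochondrial DNA (mtDNA), and the nuclear ones are made, like other proteins, on cytosolic ribosomes and imported into the organelle.

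Expression was measured by BRB-seq, which reads the 3′ ends of polyadenylated RNA from barcoded samples pooled in one library, and the deposited values are counts per gene. Totals lay between 945286 and 4857359 counts, with a median of 2398072 for PFC CTR and 1966931 for PFC mCRS libraries. The NAc medians were 2884276.5 for CTR and 2615250.5 for mCRS. Levels are given as CPM, the counts of a gene scaled to its library's total after TMM normalization, and errors of counts cover counting error only, since reads are PCR copies without molecular identifiers. The labelled tissues carried their markers: the median of Slc17a7, the vesicular glutamate transporter of cortical neurons, was 640 CPM in PFC CTR and 76.6 CPM in NAc CTR, and that of Ppp1r1b, which marks striatal projection neurons, was 128 and 866 CPM. One NAc library stood apart, CTR 7, with 0.417 CPM of the dopamine receptor gene Drd1 against 63.6 to 254 CPM in the other 31 NAc libraries, and with 937 CPM of the hypothalamic peptide gene Avp against 0 to 447 CPM. Another, NAc mCRS 10, held 21591 CPM of the choroid plexus gene Ttr against 0 to 318 CPM in the rest. Results that rest on these libraries are given with and without them, and in bulk tissue fewer cells of a type cannot be told apart from less RNA per cell.

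Which genes moved with mCRS over both regions was asked first. Among the 11025 genes that passed the filter on low counts, none passed a Benjamini-Hochberg false discovery rate (FDR) of 0.05 in edgeR's quasi-likelihood test (0% of genes), and the smallest FDR was 0.115, for Prdx1. At an unadjusted p below 0.05 there were 347 genes, of which 184 were higher after mCRS (1.67% of all genes tested) and 163 lower (1.48%). At a p below 0.01 there were 72 genes, 45 higher and 27 lower. DESeq2 called 2 genes at an FDR below 0.05, the astrocytic glutamate transporter Slc1a3, which was lower, and the ribosomal protein gene Rpl30, which was higher, both at an FDR of 0.0341. That tool's own filter on mean counts left only 552 genes with an adjusted p. Without NAc CTR 7 and NAc mCRS 10 the edgeR test again called no gene at an FDR below 0.05, and 354 genes had a p below 0.05, 182 of them higher and 172 lower.

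Few of the 347 genes had a p below 0.05 in both regions. Of the 347, 333 had the same sign in the PFC alone and the NAc alone, 176 higher and 157 lower, which the pooled test favours by its construction. A p below 0.05 was found for 166 of the 347 in the PFC and 83 in the NAc. It was found for 155 in the PFC only, 72 in the NAc only, 11 in both and 109 in neither. Tested alone, the PFC gave 416 genes with a p below 0.05 (3.77% of genes) and the NAc 241 (2.19%). At an FDR below 0.05 there were 3 genes, none of them in both regions and all named after their values were seen. Rab31, a small GTPase, was lower in the PFC at -3.74 (FDR 0.045) and at -0.05 in the NAc, but 57.53% of its counts came from PFC CTR 5. In the NAc Rspo2 was lower (FDR 0.0114), and Ttr was higher (FDR 0.0114) with 91.1% of its counts in NAc mCRS 10. Of the 416 PFC genes, 227 had the same sign in the NAc, and of the 241 NAc genes, 133 had the same sign in the PFC. The lists met in 16 genes, which was 3.85% of the PFC list and 6.64% of the NAc list. In 11 of the 16 the direction was the same (0.0998% of all genes) and in 5 it was opposite (0.0454%).

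How closely the effects in both regions followed each other was asked next. Across the 11025 genes the log2 fold changes of the PFC and the NAc had a Pearson r of 0.0047 and a Spearman rho of 0.0123, and 50.8% of genes had the same sign in both. This is a description across genes, which are not independent. The regional values share no counts but come from the same mice and were read in pooled BRB-seq libraries. The fold changes were spread with an SD of 0.733 in the PFC and 0.554 in the NAc. Weighting each gene by its error, as a signed z value, gave an r of 0.032. The most abundant of 5 equal bins of genes had an r of 0.0534 and a rho of 0.077, and in the other 4 bins of abundance r lay between -0.0269 and 0.0134. Among the 500 most abundant genes rho was 0.1698 while r was -0.0265, so the sign of the relation depended on the measure there. As signed z values the same genes had an r of 0.1603 and a rho of 0.17, so only the unweighted r was negative.

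**Figure D1:**
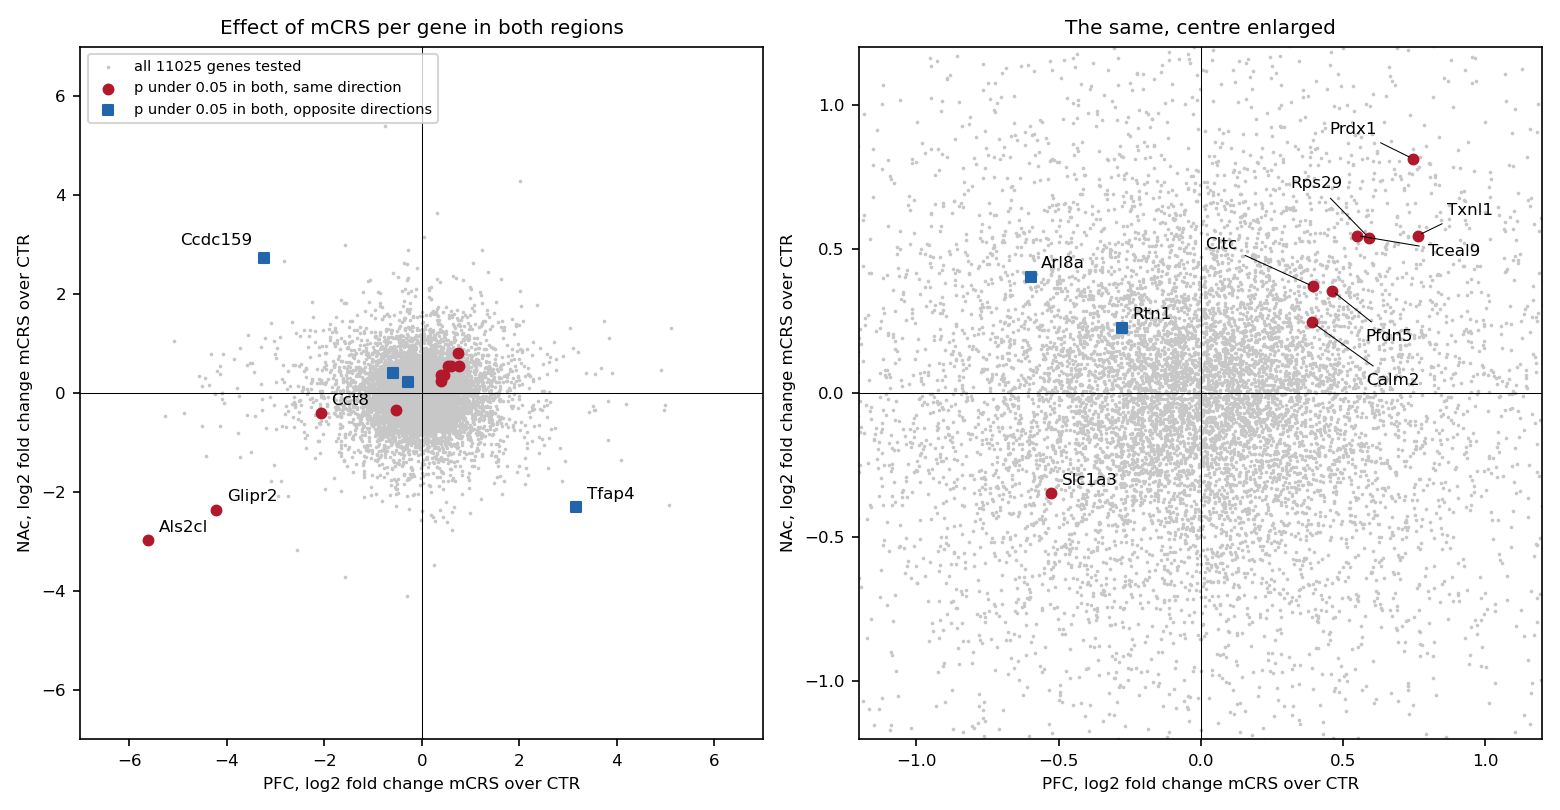
Log2 fold change of mCRS against CTR in the PFC (x axis) and in the NAc (y axis), one point per gene, for 11025 genes. The left panel shows the range to 7 on each side, which leaves out 1 gene, Rspo2, and the right panel enlarges the centre. The cloud has no visible slope (r 0.0047), and the coloured genes with a p below 0.05 in both regions lie in all quadrants, with 11 marked in the same-direction quadrants and 4 of the 5 opposite genes marked in the other quadrants.

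The same relation was also computed within each region. Libraries numbered 1 to 8 and libraries numbered 9 and above were fitted separately, and these subsets share no library. In the deposited order PFC mCRS 8 follows PFC CTR 15, apart from the lower-numbered PFC libraries, so the split by number departs from that order there. What the order stands for is not stated. Within the PFC the effects of both subsets had an r of 0.0091, and within the NAc 0.0296. The 4 pairings of a PFC subset with a NAc subset gave 0.0014, 0.0228, -0.0095 and 0.0033. Separate libraries of one region thus shared as little of the gene-wise effect as libraries of both regions did, so at this depth a lack of relation between regions cannot be told apart from error. Without both libraries that stand apart the r between regions was 0.0111.

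The genes that encode the respiratory chain and the ribosome were also described on their own. Over the 163 mtDNA, nuclear OXPHOS and cytosolic ribosomal protein genes r was 0.1532 and rho 0.1709, and 69.3% had the same sign in both regions. Without them, the 10862 remaining genes had an r of 0.0032 and 50.5% of shared signs. The families differed: r was 0.364 across the 79 cytosolic ribosomal protein genes and 0.085 across the 77 nuclear OXPHOS genes. The 163 members differ in level, in part share sequence with processed gene copies and were chosen with earlier results of these data known.

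After mCRS 7 genes were higher and 4 were lower in both regions, each with an unadjusted p below 0.05 in the PFC and in the NAc. The higher genes were the peroxiredoxin gene Prdx1, the thioredoxin-like gene Txnl1, the prefoldin gene Pfdn5, the calmodulin gene Calm2, the ribosomal gene Rps29, the clathrin gene Cltc and Tceal9. The lower genes were Slc1a3, the chaperonin gene Cct8, Als2cl and Glipr2. Since both p values chose these genes, the values below describe them and support nothing further. In every one of the 11 the range of CTR libraries and that of mCRS libraries overlapped in both regions.

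Promoters are shown for Prdx1 and Slc1a3, the higher and the lower gene that kept a p below 0.05 in both regions whichever single library was left out and that were expressed in all libraries. Each run is the 250 bases before the RefSeq start, 5′ to 3′ on the strand of the gene, in GRCm38.p6. For Prdx1 this is chr4:116685349-116685598 on the plus strand, and for Slc1a3 chr15:8710808-8711057 on the minus strand. Capitals mark matches to a searched motif.

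Prdx1: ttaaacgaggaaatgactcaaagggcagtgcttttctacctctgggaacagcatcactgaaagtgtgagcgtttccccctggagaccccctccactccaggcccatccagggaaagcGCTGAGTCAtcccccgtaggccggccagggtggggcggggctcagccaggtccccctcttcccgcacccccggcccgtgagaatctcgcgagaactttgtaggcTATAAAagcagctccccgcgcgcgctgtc
Slc1a3: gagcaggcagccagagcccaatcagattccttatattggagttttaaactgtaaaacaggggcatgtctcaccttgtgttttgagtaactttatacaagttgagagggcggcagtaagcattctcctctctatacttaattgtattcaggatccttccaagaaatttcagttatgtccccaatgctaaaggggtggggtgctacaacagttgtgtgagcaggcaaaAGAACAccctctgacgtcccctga

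In the Prdx1 promoter the first capitals match the antioxidant response element TGACNNNGC on the reverse strand, at positions -133 to -125 from the start, a motif bound by the oxidative stress factor Nrf2. The second capitals are the TATA box letters TATAAA at positions -29 to -24. In the Slc1a3 promoter the capitals are AGAACA, a site bound by one molecule of the glucocorticoid receptor, at positions -24 to -19. Searched on both strands, these motifs were held by 10.2%, 12.4% and 16.1% of the same windows of 32851 RefSeq promoters. The cAMP response element TGACGTCA and the ATF4 element TGATGNAAT were searched too and held by 1.55% and 0.816%. The TATA letters on the reverse strand of the Slc1a3 run, at -161 to -156, are left in lower case. A match is a description of letters, not a site in use. Of the other members, Tceal9 held AGAACA and the antioxidant letters, and Pfdn5, Cltc, Cct8, Glipr2 and Als2cl held none of the 5 motifs in this window.

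Prdx1 (ENSMUSG00000028691, chr4:116685544-116700822, plus strand) encodes peroxiredoxin 1, a cytosolic enzyme that reduces hydrogen peroxide with electrons from thioredoxin. In the PFC its lowest, median and highest levels were 102, 207 and 498 CPM in the CTR libraries and 18.9, 384 and 784 CPM in the mCRS libraries. The NAc values were 15.9, 152 and 224 CPM in CTR and 128, 268 and 443 CPM in mCRS. Most mCRS libraries were high, 13 of 15 above the CTR median in the PFC and 15 of 16 in the NAc, while 1 low mCRS library in the PFC and 1 low CTR library in the NAc widened the ranges. The log2 fold change over both regions was 0.78 ± 0.17 (SE, n = 31 and 31 libraries; edgeR p = 1.04e-05, FDR 0.115). It was 0.75 ± 0.25 in the PFC and 0.81 ± 0.21 in the NAc, and the difference between regions was -0.06 with a 95% interval from -0.72 to 0.61. With 1 library left out at a time, the FDR lay between 0.00358 and 0.212. It was 0.00358 without PFC mCRS 12, 0.0251 without PFC CTR 14 and 0.0467 without NAc mCRS 14.

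Txnl1 (ENSMUSG00000024583), whose product is a thioredoxin-like protein of the proteasome, was the other redox gene of the group. Its lowest, median and highest levels were 47.7, 92.9 and 283 CPM in PFC CTR against 24.2, 184 and 506 CPM in PFC mCRS. For the NAc these were 8.84, 121 and 234 CPM in CTR against 61.8, 157 and 320 CPM in mCRS. In each region 13 mCRS libraries lay above the CTR median, among ranges that overlapped almost fully. Its log2 fold change was 0.65 ± 0.21 (SE; edgeR p = 0.00217, FDR 1) over both regions, 0.76 in the PFC and 0.55 in the NAc. Without NAc CTR 7 and NAc mCRS 10 Txnl1 no longer had a p below 0.05 in both regions. The wider list of 21 antioxidant enzymes did not move as one. It had 11 members higher and 10 lower, a median log2 fold change of 0.02, and at a p below 0.05 only Prdx1 higher and the mitochondrial thioredoxin reductase gene Txnrd2 lower, at -1.38 (p = 0.044). Superoxide dismutase, Sod1, was at 0.15 (p = 0.145).

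Calm2 (ENSMUSG00000036438, chr17:87433412-87446935, minus strand) encodes calmodulin, the calcium sensor that activates CaM kinases and calcineurin. Its lowest, median and highest levels were 2161, 2978 and 4755 CPM in PFC CTR and 2045, 3958 and 6181 CPM in PFC mCRS. They were 1010, 1743 and 2600 CPM in NAc CTR and 1112, 2052 and 3285 CPM in NAc mCRS. In each region 13 mCRS libraries were above the CTR median. The log2 fold change was 0.32 ± 0.09 (SE; edgeR p = 0.000369, FDR 0.813), with 0.39 in the PFC and 0.25 in the NAc. The 20 listed genes for calmodulin and its kinases did not rise as a list. Their median was -0.04, against -0.02 for all genes, and 7 were higher, where 48% of all genes were. The other 13 were lower, 10 of them in both regions (50% of the list, against 26.6% of all genes). Of these the kinase kinase gene Camkk2 had a p below 0.05, at -0.41 ± 0.15 (SE; p = 0.00697), with -0.35 in the PFC and -0.48 in the NAc. The inhibitor of calcineurin Rcan2 was at -0.32 (p = 0.0967), with -0.04 (p = 0.891) in the PFC and -0.57 (p = 0.00492) in the NAc.

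Pfdn5 (ENSMUSG00000001289, chr15:102326116-102331873, plus strand) encodes a subunit of prefoldin, which hands unfolded actin and tubulin to the CCT chaperonin. Its levels had medians of 302 CPM in PFC CTR and 420 CPM in PFC mCRS, within 220 to 555 CPM and 131 to 741 CPM. In the NAc the medians were 238 CPM in CTR and 294 CPM in mCRS, within 150 to 382 CPM and 166 to 461 CPM. The CTR median was exceeded by 11 mCRS libraries of each region, and the log2 fold change was 0.41 ± 0.12 (SE; edgeR p = 0.00146, FDR 0.994).

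Cct8 (ENSMUSG00000025613, chr16:87483326-87495873, minus strand), a subunit of that chaperonin, was lower in the fit, but 1 library decided its value. PFC CTR 1 held 14916 CPM, or 42.03% of all its counts, against a PFC CTR median of 205 CPM. In the PFC mCRS libraries Cct8 ranged from 27.5 to 686 CPM around a median of 280 CPM, and 10 of 15 lay above the CTR median, opposite to the sign of the fold change. In the NAc the median was 232 CPM in CTR and 182 CPM in mCRS. The log2 fold change of -1.20 ± 0.32 (SE; edgeR p = 0.000368, FDR 0.813) became 0.02 without PFC CTR 1 and 0.03 in DESeq2, which replaces such values. The 7 tested CCT genes had a median of 0.03, and none besides Cct8 had a p below 0.05.

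Rps29 (ENSMUSG00000034892, chr12:69157722-69159186, minus strand) encodes a protein of the small ribosomal subunit. Its medians were 353 CPM in PFC CTR and 484 CPM in PFC mCRS, within 127 to 708 CPM and 206 to 903 CPM. NAc levels were 125 CPM in CTR and 184 CPM in mCRS, within 39.2 to 294 CPM and 73.2 to 351 CPM. Among the mCRS libraries 11 of each region exceeded the CTR median, and the log2 fold change was 0.57 ± 0.16 (SE; edgeR p = 0.000663, FDR 0.866), with 0.59 in the PFC and 0.54 in the NAc. Some of its reads can go uncounted because they do not map uniquely. Of the 70-base windows near its 3′ end, 31.78% occur in transcripts of other genes, as do 13.36% of those of Prdx1 and 12.25% of those of Pfdn5.

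Cltc (ENSMUSG00000047126, chr11:86694351-86757565, minus strand) encodes the clathrin heavy chain, which coats vesicles during endocytosis. Its medians were 577 CPM in PFC CTR and 669 CPM in PFC mCRS, within 256 to 1095 CPM and 541 to 1307 CPM. In the NAc they were 330 CPM in CTR and 377 CPM in mCRS, within 151 to 512 CPM and 161 to 978 CPM. The mCRS libraries lacked the low values seen in PFC CTR, with 11 of 15 above the CTR median there and 13 of 16 in the NAc. Its log2 fold change was 0.38 ± 0.12 (SE; edgeR p = 0.00228, FDR 1).

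Tceal9 (ENSMUSG00000042712, chrX:136245079-136247139, plus strand) encodes a protein related to transcription elongation factor A. Its medians were 236 CPM in PFC CTR and 363 CPM in PFC mCRS, within 37 to 366 CPM and 103 to 832 CPM. The NAc values were 121 CPM in CTR and 228 CPM in mCRS, within 33.2 to 386 CPM and 3.78 to 358 CPM. All but 1 of the 16 NAc mCRS libraries were above the CTR median, and 10 of 15 in the PFC. The log2 fold change was 0.55 ± 0.20 (SE; edgeR p = 0.00671, FDR 1), equal in both regions at 0.55. Tceal9 stood closest to the limit, with p = 0.035 in the PFC and 0.049 in the NAc, and it kept a p below 0.05 in both regions in 31 of 62 fits that each left out 1 library. Just outside were the kinase gene Nlk, lower with p = 0.0523 and 0.0532, the sodium channel gene Scn8a, lower with 0.0553 and 0.0325, and the actin-capping gene Capza2, higher with 0.059 and 0.0294.

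Slc1a3 (ENSMUSG00000005360, chr15:8634124-8710764, minus strand) encodes GLAST, a transporter with which astrocytes clear glutamate from synapses. In the PFC its lowest, median and highest levels were 333, 539 and 697 CPM in CTR and 70, 399 and 545 CPM in mCRS. For the NAc these were 373, 529 and 830 CPM in CTR and 173, 456 and 658 CPM in mCRS. Nearly all PFC mCRS libraries were low, 14 of 15 below the CTR median, as were 12 of 16 in the NAc. Its log2 fold change was -0.43 ± 0.11 (SE; edgeR p = 0.000214, FDR 0.787), with -0.52 ± 0.17 in the PFC, -0.35 ± 0.14 in the NAc and a difference of -0.17 with a 95% interval from -0.62 to 0.27. The other astrocyte markers were mixed. Of the 10 tested, 4 were higher and 6 lower with a median of -0.04, and besides Slc1a3 none had a p below 0.05, among them the water channel gene Aqp4 at -0.49 (p = 0.158) and Clu at 0.12 (p = 0.15).

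Als2cl (ENSMUSG00000044037, chr9:110879870-110900530, plus strand) and Glipr2 (ENSMUSG00000028480, chr4:43957401-43979118, plus strand) were sparse, and their values come from few libraries. Als2cl had 237 counts from 6 of 15 PFC CTR libraries and 2 counts from 1 PFC mCRS library, a ratio per count of 0.0102 (95% interval 0.00123 to 0.0374, counting error only). In the NAc it had 389 counts from 11 of 16 CTR libraries and 74 from 4 mCRS libraries, a ratio of 0.23 (0.177 to 0.296). Its fitted log2 fold change was -4.08 ± 0.91 (SE; edgeR FDR 0.119). With 1 library left out at a time, the FDR lay between 0.0467, without NAc mCRS 14, and 0.434. Glipr2 had 260 counts in 6 PFC CTR libraries against 12 in 1 PFC mCRS library, and 354 in 10 NAc CTR libraries against 71 in 6 NAc mCRS libraries. Its fitted value was -3.22 ± 0.90 (SE; FDR 0.85). The median library of Glipr2 had 1.18 CPM in NAc CTR and 0 CPM in the other groups.

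**Figure D2:**
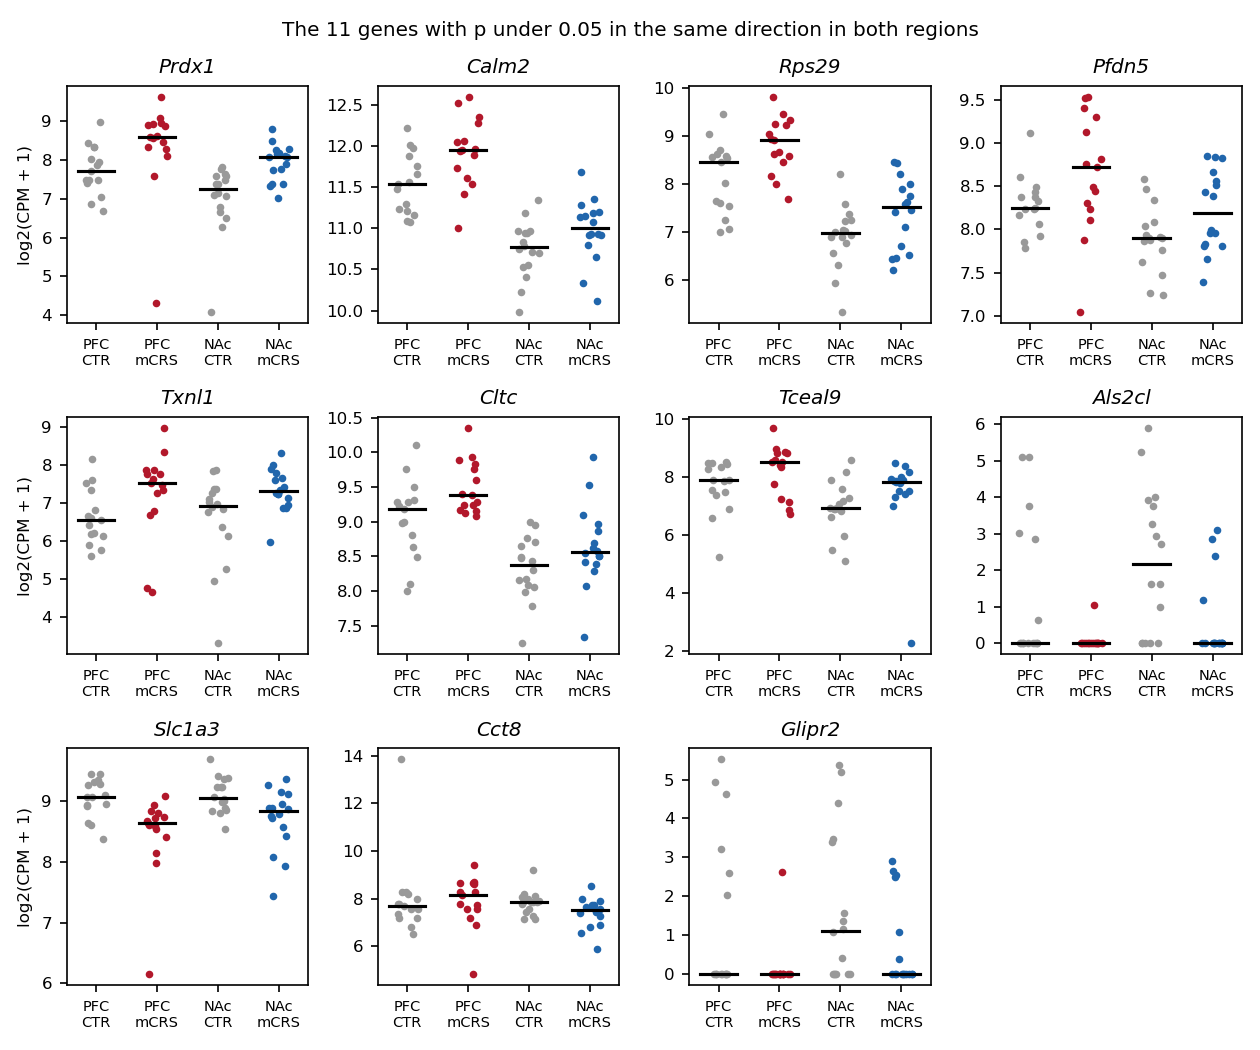
Level of each of the 11 same-direction genes in every library, as log2(CPM + 1), for PFC CTR, PFC mCRS, NAc CTR and NAc mCRS, with a black bar at the group median. Groups overlap in every panel, the Prdx1 medians are 207 CPM in CTR and 384 CPM in mCRS for the PFC and 152 and 268 CPM for the NAc, and a single PFC CTR library at 14916 CPM stands far above all others for Cct8.

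Library complexity moved with treatment too, chiefly in the PFC. The share of the 11121 listed genes with at least 1 count was 87.06% ± 4.42 (SD) in PFC CTR and 82.3% ± 6.22 in PFC mCRS, and 90.22% ± 7.13 in NAc CTR and 88.47% ± 7.43 in NAc mCRS. The mean of the regional differences was -3.25 percentage points (two-sided permutation test, p = 0.0486), with 11 of 31 mCRS libraries above the CTR median, and without 1 library at a time it lay between -3.87 and -2.72 (p between 0.0131 and 0.088). It was -4.75 points in the PFC (p = 0.0212) and -1.75 points in the NAc (p = 0.501). With this share as a covariate 6 genes had a p below 0.05 in the same direction in both regions, and 5 of the 11 were among them, namely Prdx1, Slc1a3, Als2cl, Cct8 and Glipr2. Calm2, Rps29, Pfdn5, Txnl1, Cltc and Tceal9 then missed the limit in at least 1 region. The part of the detected share in these results was not tested further. In all, Prdx1 kept its place in 13 of 14 other settings, Slc1a3 and Als2cl in 12 and Tceal9 in 5. Without NAc CTR 7 and NAc mCRS 10 there were 8 same-direction genes, and Calm2, Pfdn5, Txnl1, Cct8 and Glipr2 were no longer among them.

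Opposite signs with a p below 0.05 in both regions were found for 5 genes. Rtn1, which encodes a reticulon of the neuronal endoplasmic reticulum, was lower in the PFC and higher in the NAc. Its levels were 1202, 2247 and 2565 CPM (lowest, median, highest) in PFC CTR and 1174, 1648 and 2224 CPM in PFC mCRS, where all 15 mCRS libraries lay below the CTR median. NAc levels were 831, 1318 and 1768 CPM in CTR and 1144, 1468 and 2016 CPM in mCRS, with 13 of 16 mCRS libraries above the CTR median. The log2 fold changes of Rtn1 were -0.28 and 0.23, and their difference was -0.50 (95% interval -0.80 to -0.20, edgeR interaction p = 0.00148, FDR 1).

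Arl8a, a small GTPase that moves lysosomes along microtubules, had the same pattern. Its median was 271 CPM in PFC CTR and 193 CPM in PFC mCRS, and 161 CPM in NAc CTR and 222 CPM in NAc mCRS. The ranges overlapped, with 3 of 15 PFC mCRS libraries and 13 of 16 NAc mCRS libraries above the CTR median. The log2 fold changes of Arl8a were -0.60 and 0.40, and their difference was -0.99 (95% interval -1.59 to -0.40, p = 0.0013). Ccdc159 and Tfap4 were sparse. Ccdc159 had 187 counts in PFC CTR against 20 in PFC mCRS and 141 in NAc CTR against 532 in NAc mCRS. The transcription factor gene Tfap4 had 11 against 75 counts in the PFC and 714 against 108 in the NAc. No difference between regions for the 5 opposite genes passed an FDR of 0.05, the smallest being 0.954 for Ccdc159. Without both libraries that stand apart the count of opposite genes was 3.

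Pathways were described from 50 lists of genes by the number of members that moved, beside the same numbers for all genes. Over all 11025 genes, 24.2% were higher and 26.6% lower in both regions at any p, 48% were higher in the fit over both, and the median log2 fold change was -0.02 in that fit, -0.02 in the PFC and -0.00 in the NAc. No list member passed an FDR of 0.05 in the edgeR fit.

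Most genes of cytosolic ribosomal proteins were higher. Of 79 tested, 67 were higher after mCRS, and 24 of these had a p below 0.05 against 1 that was lower, Rpl28 at -0.39, named after its value was seen. In both regions 54 members were higher (68.4%) and 7 lower (8.86%). The median log2 fold change was 0.18 over both regions, 0.25 in the PFC and 0.08 in the NAc, and tested alone 28 were higher and 1 lower at a p below 0.05 in the PFC but only 2 higher in the NAc. Rpl30, of the large subunit, had lowest, median and highest levels of 185, 263 and 450 CPM in PFC CTR and 258, 396 and 694 CPM in PFC mCRS. In the NAc its levels were 108, 195 and 281 CPM in CTR and 54.4, 225 and 353 CPM in mCRS. In each region 14 mCRS libraries were above the CTR median, yet the ranges overlapped. The log2 fold change was 0.45 ± 0.13 (SE; edgeR p = 0.00054, FDR 0.85), with 0.66 in the PFC and 0.25 in the NAc. Rps3a1, of the small subunit, was at 0.47 (p = 0.000996), with 0.72 and 0.23.

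Ribosomal protein genes have many processed copies. The paper counted only uniquely mapped reads, so reads that match several copies equally go uncounted. The 6 ribosomal genes with no 70-base window shared with another gene were all higher, 5 in both regions, with a median of 0.14, and the 73 with at least 1 had a median of 0.20. Of all counts, ribosomal protein genes took 2.342% in PFC CTR against 2.779% in mCRS, and 2.369% in NAc CTR against 2.473% in mCRS. With the share of detected genes as a covariate the median over both regions was 0.20, 53 were higher in both and 16 were higher at a p below 0.05, and with 1 surrogate variable 11 were. In libraries numbered 9 and above alone 37 were higher in both, 6 at a p below 0.05, with a median of 0.12. Without NAc CTR 7 and NAc mCRS 10 the median was 0.20, and 54 members were higher in both.

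Nuclear OXPHOS genes leaned the same way. Of 77 members of complexes I to V, 61 were higher, 16 of them with a p below 0.05 against 1 lower, and 38 were higher in both regions (49.4%) against 8 lower in both. The median was 0.15 over both regions, 0.21 in the PFC and 0.08 in the NAc. Fitted with the detected share as a covariate the PFC median was 0.08, and 12 members were higher at a p below 0.05. For 73 members, 70-base windows shared with another gene were sought. The median was 0.09 (PFC 0.13) for the 47 genes with none and 0.20 (PFC 0.31) for the 26 with at least 1. Complex IV, cytochrome c oxidase, had all 12 nuclear members higher, 9 in both regions and 6 at a p below 0.05, with a median of 0.24. With the detected share as a covariate all 12 were still higher, but 7 in both regions and 3 at a p below 0.05, and the PFC median went from 0.25 to 0.09. With 1 surrogate variable 2 had a p below 0.05 and the PFC median was 0.07. Cox6c was its member of smallest p, with medians of 250 CPM in PFC CTR, 454 CPM in PFC mCRS, 167 CPM in NAc CTR and 203 CPM in NAc mCRS and a log2 fold change of 0.42 (p = 0.00881), 0.64 in the PFC and 0.22 in the NAc. Cox7c was at 0.39 and Cox6b1 at 0.26.

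In complex III, 7 of 9 members were higher, 6 in both regions, with a median of 0.24. Its subunit gene Uqcrb was at 0.41 (p = 0.0131), but with 0.82 in the PFC and 0.03 in the NAc. Complex V, the ATP synthase, had 15 of 16 members higher, 9 in both regions and none lower in both, with a median of 0.19. Its PFC median of 0.20 was 0.04 with the detected share as a covariate, while the NAc median was 0.17 without and 0.18 with it. Its coupling-factor gene Atp5j had medians of 648 and 931 CPM in PFC CTR and mCRS and 462 and 514 CPM in the NAc, and a log2 fold change of 0.34 (p = 0.005). Complex I, the NADH dehydrogenase, was more mixed, with 26 of 36 higher, 14 in both regions, 5 lower in both and a median of 0.08. Its NAc median was 0.05, and -0.00 without both libraries that stand apart. With the detected share as a covariate its PFC median went from 0.19 to 0.07. Complex II, the succinate dehydrogenase, had 1 of its 4 genes higher and a median of -0.09, with none at a p below 0.05. In both regions none was higher and 2 were lower. In libraries numbered 9 and above alone 3 of the 4 were higher, with a median of 0.06.

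Within complex I the values differed in sign. Ndufa4 was listed here with complex I, although its product is found in complex IV. Its medians were 702 CPM in PFC CTR and 1305 CPM in PFC mCRS, and 323 CPM in NAc CTR and 420 CPM in NAc mCRS. In the PFC 14 of 15 and in the NAc 12 of 16 mCRS libraries lay above the CTR median, and its log2 fold change was 0.45 (p = 0.00551). Ndufc1 was lower at -0.61 (p = 0.0127), -0.73 in the PFC and -0.50 in the NAc, and below the CTR median lay 11 of 15 and 14 of 16 mCRS libraries. Ndufv2 was at 0.27 (p = 0.0361), from 0.59 in the PFC and -0.03 in the NAc. Without both libraries that stand apart, the NAc median of the 77 nuclear OXPHOS genes was 0.03 in place of 0.08, and 36 were higher in both.

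The mtDNA genes were higher chiefly through the PFC. All 7 were higher over both regions, 6 with a p below 0.05, and the median log2 fold change was 0.22, made of 0.41 in the PFC and 0.06 in the NAc. In the PFC alone 7 had a p below 0.05 and in the NAc none. With the share of detected genes as a covariate the PFC median was 0.21 and 4 genes had a p below 0.05 over both regions, and with 1 surrogate variable it was 0.21 with 2 such genes. In libraries numbered 9 and above alone the PFC median was 0.17 and 1 gene had a p below 0.05. The complex I gene mt-Nd1 had lowest, median and highest levels of 16273, 24547 and 42595 CPM in PFC CTR and 18217, 35300 and 59041 CPM in PFC mCRS, with 14 of 15 mCRS libraries above the CTR median. In the NAc its levels were 15168, 18149 and 23289 CPM in CTR and 14846, 19218 and 25177 CPM in mCRS, and the groups nearly coincided. Its log2 fold change was 0.23 ± 0.08 (SE; edgeR p = 0.00345, FDR 1), with 0.41 in the PFC and 0.05 in the NAc and a difference of 0.37 (95% interval 0.08 to 0.65). The cytochrome b gene mt-Cytb was at 0.22, with 0.41 and 0.03, and the cytochrome oxidase gene mt-Co1 at 0.27, with 0.47 and 0.07, although 95.13% of the mt-Co1 windows searched also occur in transcripts of other genes.

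As a share of all counts, mtDNA protein genes took 12.88% ± 3 (SD, n = 15) in PFC CTR and 16.04% ± 3.64 (n = 15) in PFC mCRS. In the NAc they took 10.32% ± 1.31 (n = 16) in CTR and 10.65% ± 1.60 (n = 16) in mCRS. The mean of the regional differences was 1.75 percentage points (two-sided permutation test, p = 0.0125), and 22 of 31 mCRS libraries were above the CTR median. It came from 3.16 points in the PFC (p = 0.0153) and 0.331 points in the NAc (p = 0.525). In libraries numbered 9 and above the mean difference was 0.628 points (p = 0.422).

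**Figure D3:**
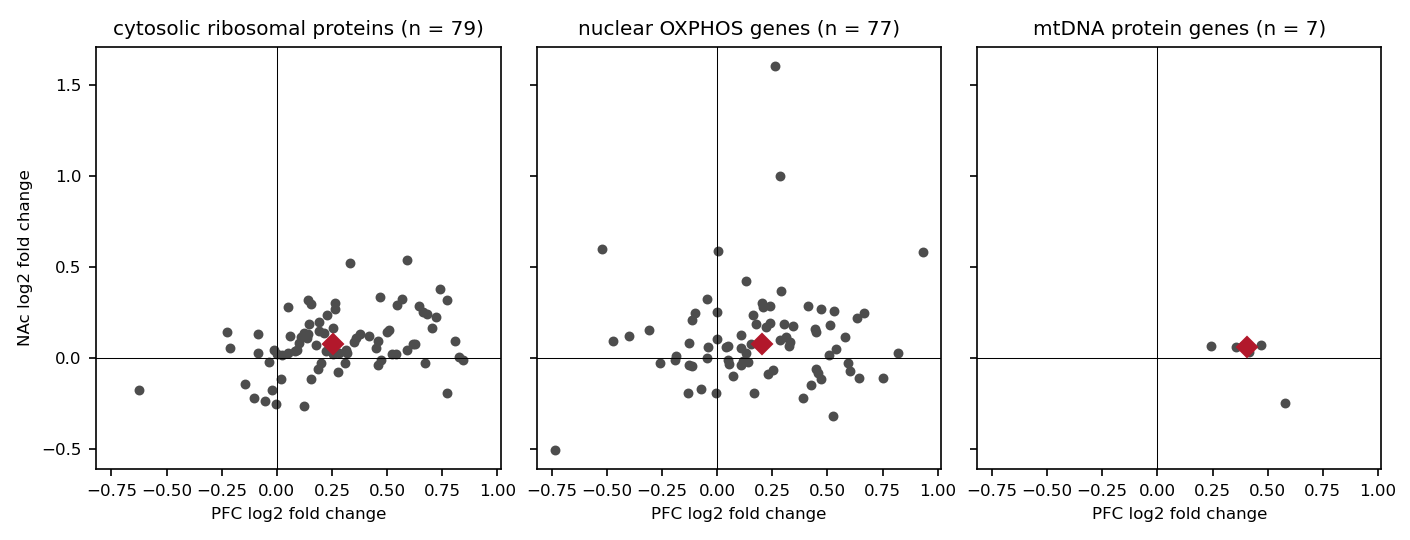
Log2 fold change in the PFC (x axis) and in the NAc (y axis), one point per gene. The panels show cytosolic ribosomal protein, nuclear OXPHOS and mtDNA protein genes, with a red diamond at the medians of each family. The diamonds lie at 0.25 in the PFC and 0.08 in the NAc for ribosomal genes and at 0.21 and 0.08 for nuclear OXPHOS genes. For mtDNA genes the diamond lies at 0.41 and 0.06. Higher in both regions were 54 of 79, 38 of 77 and 6 of 7 members.

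Genes that maintain mitochondria did not all follow the respiratory chain. Mitochondrial ribosomal proteins, which translate the mtDNA genes, had 48 of 75 members higher and 29 higher in both regions (38.7%), with medians of 0.09, 0.12 in the PFC and 0.16 in the NAc, although with the detected share as a covariate the PFC median was -0.00. Only 2 of them had a p below 0.05, both higher, Mrps22 at 1.24 (p = 0.00992) and Mrpl30 at 0.50 (p = 0.011). The machinery that imports nuclear-encoded proteins leaned down, with 13 of 20 members lower and 10 lower in both regions, and medians of -0.14, -0.13 in the PFC and -0.15 in the NAc. Fitted with the detected share as a covariate the median over both regions was -0.05 with 8 lower in both, and with 1 surrogate variable -0.03 with 7 lower in both. Its member of smallest p went against the list. Timm8b, a small chaperone of the intermembrane space, was at 0.56 (p = 0.000785), 0.86 in the PFC and 0.27 in the NAc, while Tomm34 was at -0.43 and Timm9 at -0.50.

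Lists of neuronal excitability differed among themselves, and few members passed. In the fit over both regions potassium channels were even, with 30 of 59 higher and a median of 0.01. So were the 13 GABA-A receptor subunits with 7 higher and the 7 metabotropic glutamate receptors with 4 higher. Taken by region these lists were less even. Potassium channels had 22 members lower in both (37.3%) and 16 higher in both. Their PFC median was -0.13 with 23 of 59 higher, and that of the NAc 0.03 with 30 higher. PFC and NAc medians were -0.08 and 0.17 for GABA-A subunits, and -0.14 and 0.07 for metabotropic receptors. The other lists had more lower than higher members in the fit over both regions. Of 15 ionotropic glutamate receptor genes 12 were lower and 8 lower in both regions, with a median of -0.13, -0.32 in the PFC and -0.04 in the NAc. The PFC median was -0.12 with the detected share as a covariate and -0.08 with 1 surrogate variable, and in libraries numbered 1 to 8 alone the NAc median turned to 0.26, with 11 of 15 higher. None had a p below 0.05, and the AMPA receptor gene Gria1 was at -0.20 (p = 0.105). Of 6 subunit genes of the sodium pump, Na/K-ATPase, 5 were lower in both regions with a median of -0.12, and none had a p below 0.05. The 32 sodium and calcium channel genes had a median of -0.09, with 12 lower in both regions (37.5%) and 5 higher in both. At a p below 0.05 there were 3 lower and 2 higher. Their median was -0.17 in the PFC but -0.0021 in the NAc, where 15 were higher. In libraries numbered 9 and above alone the median of the pump genes was 0.05, and in libraries numbered 1 to 8 alone that of the channel genes was 0.02.

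Scn8a, the main sodium channel at the axon initial segment, was lower by a like amount in each region. Its lowest, median and highest levels were 116, 272 and 381 CPM in PFC CTR and 60.2, 211 and 354 CPM in PFC mCRS. In the NAc they were 143, 244 and 300 CPM in CTR and 42.5, 159 and 377 CPM in mCRS. Below the CTR median lay 14 of 15 and 14 of 16 mCRS libraries, with ranges that overlapped. The log2 fold change was -0.42 ± 0.14 (SE; edgeR p = 0.00398, FDR 1), -0.41 in the PFC and -0.44 in the NAc, and the difference of 0.03 had a 95% interval from -0.54 to 0.60. The calcium channel gene Cacna1b was at -0.76 (p = 0.0207), and the sparse channel subunit gene Cacng5 at 3.02 (p = 0.00172).

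Genes of the neuronal cytoskeleton were divided. Among 28 microtubule genes 13 were higher and 15 lower with a median of -0.01, and the 3 lower at a p below 0.05 encode the microtubule-associated proteins Map1b at -0.21 (p = 0.00282), Mapt at -0.32 (p = 0.00314) and Map2 at -0.22 (p = 0.0254). Map1b had medians of 1606 and 1383 CPM in PFC CTR and mCRS and of 1484 and 1232 CPM in the NAc. Mapt, which encodes tau, was at -0.54 in the PFC and -0.12 in the NAc. Among 26 thymosins and actin regulators 16 were higher, 8 in both regions, with a median of 0.05. Capza2, which caps actin filaments, was at 0.40 (p = 0.00427), 0.39 in the PFC and 0.41 in the NAc. The actin-binding Tmsb4x was at 0.27 (p = 0.00112), but with 0.54 in the PFC and 0.02 in the NAc and a difference of 0.53 (95% interval 0.22 to 0.83).

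Synaptic vesicle and fusion genes had a median of -0.05, with 15 of 36 higher and 13 lower in both regions, and the calcium sensor gene Syt7 at -0.35 (p = 0.0153) was the only member with a p below 0.05. Histone and chromatin modifiers had a median of -0.10, with 28 of 74 higher, 25 lower in both regions, and 3 lower against 1 higher at a p below 0.05. In the PFC alone the list was even, with 37 of 74 higher and a median of 0.0006, and the NAc median was -0.07. The nucleosome remodeller Chd4 was at -0.44 (p = 0.0151).

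Lists of the stress response itself had few members that passed. Of 18 tested glucocorticoid targets 10 were higher, 7 in both regions (38.9%), with a median of 0.05, 0.07 in the PFC and 0.14 in the NAc, and only Ddit4, an inhibitor of mTOR, had a p below 0.05. Its log2 fold change of 0.93 (p = 0.0327) was 2.0025 ± 0.73 (SE; p = 0.00831) in the PFC and -0.06 ± 0.44 (SE; p = 0.884) in the NAc, and the difference was 2.08 (95% interval 0.52 to 3.64). The kinase gene Sgk1 was at 0.47 (p = 0.188). Of 23 immediate early genes, which report recent neuronal activity, 8 were higher and 15 lower, and in both regions 2 were higher (8.7%) and 7 lower (30.4%). The median was -0.06, with -0.02 in the PFC and -0.22 in the NAc, and none had a p below 0.05, including Egr1 at -0.25 and Arc at -0.52. Bdnf was at 1.02, but 51.62% of its counts came from PFC mCRS 9, and it was at -0.10 without that library. Of 18 ATF4 targets, genes of the integrated stress response, 7 were higher with a median of -0.02, and the asparagine synthetase gene Asns was at 0.42 (p = 0.0183), 0.36 in the PFC and 0.47 in the NAc. The 28 lists not plotted by their medians, 20 of pathways and 8 of cell types, with complex II, potassium channels, GABA-A and metabotropic receptors among them, held 558 tested memberships, of which 16 were higher and 9 lower at a p below 0.05, and had medians between -0.22 and 0.59, the highest being that of the choroid plexus, 0.59 over 3 tested genes and -0.65 without NAc CTR 7 and NAc mCRS 10.

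**Figure D4:**
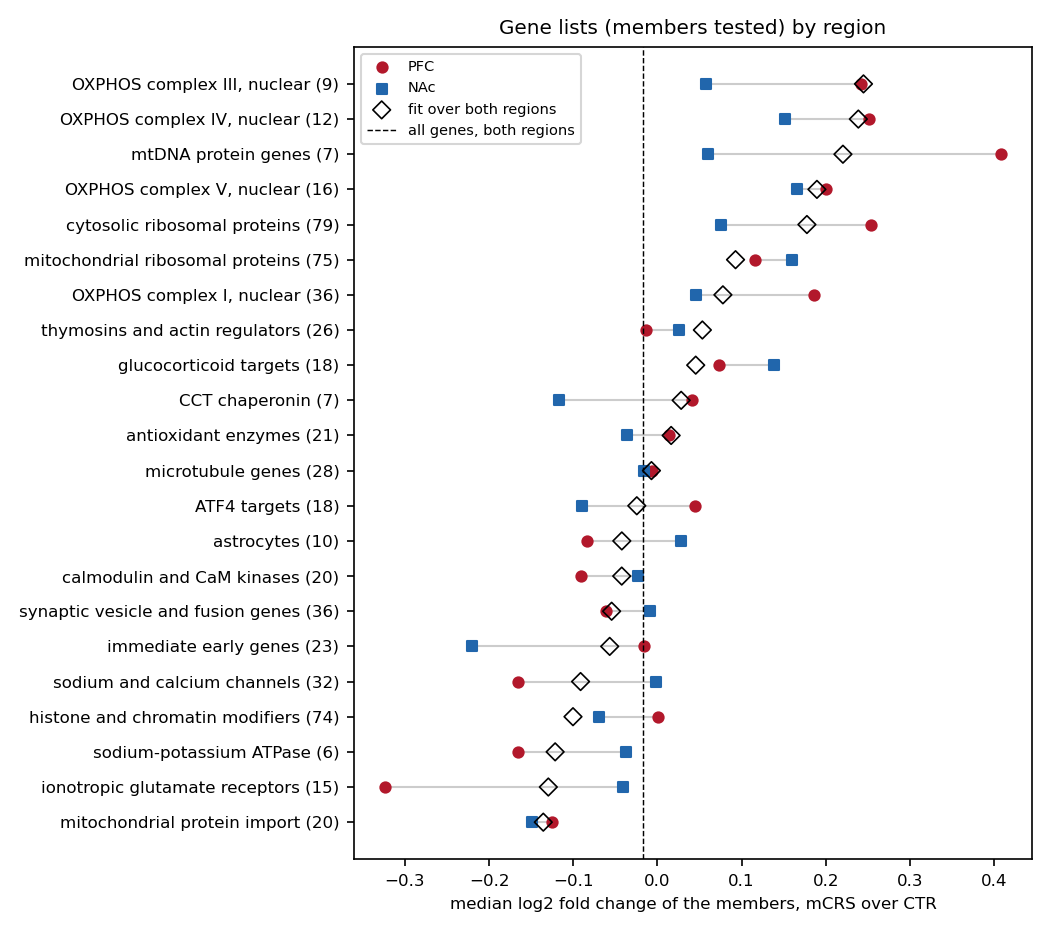
Median log2 fold change of 22 lists in the PFC (red circle), in the NAc (blue square) and over both regions (diamond), with a dashed line at the median of all genes. Ribosomal proteins and complexes III to V lie to the right of the line in both regions, protein import lies to the left in both, and the mtDNA genes lie far to the right in the PFC (0.41) but near the line in the NAc (0.06).

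Gene length moved with the effect as well. Genes were put into 5 bins by total exon length in the GENCODE annotation of GRCm38, with 2205 genes in each except one bin of 2204. From the shortest bin to the longest the median log2 fold change over both regions was 0.05, -0.01, -0.03, -0.03 and -0.06. In the PFC the medians were 0.03, -0.02, -0.04, -0.04 and -0.06, and in the NAc 0.06, 0.01, 0.00, -0.02 and -0.06. In the shortest bin, 374 to 2717 bases, 31.4% of genes were higher and 22% lower in both regions. In the longest bin, from 8225 bases, 19.1% were higher and 31.7% lower in both. Across 11024 genes the Spearman rho of length and fold change was -0.0954 over both regions, -0.0459 in the PFC and -0.0993 in the NAc, given as a description since genes are not independent.

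The lists above differ in length in the same sense. The median exon length was 1830 bases for cytosolic ribosomal proteins, 1172.5 bases for nuclear complex IV genes and 1532 bases for nuclear complex I genes, against 8973 bases for ionotropic glutamate receptors, 8863.5 bases for sodium and calcium channels and 8582 bases for chromatin modifiers. Their medians of 0.18 and 0.24 for ribosomal and complex IV genes lay further from 0 than the 0.05 of the shortest bin, and complex I with 0.08 lay nearer to it. Protein import, with 3176.5 bases, lay lower at -0.14 than its bin at -0.01. The part of transcript length in the list values was not tested.

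**Figure D5:**
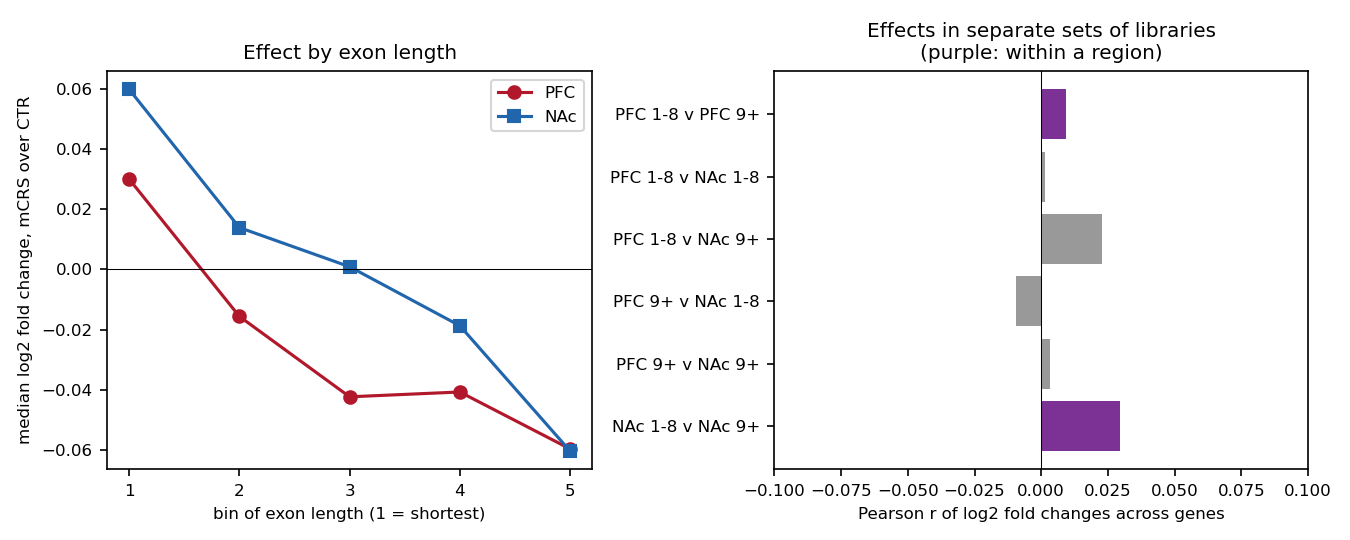
Left: median log2 fold change in 5 bins of exon length, for the PFC and the NAc. From the shortest to the longest bin it goes from 0.03 to -0.06 in the PFC and from 0.06 to -0.06 in the NAc. Right: Pearson r across genes between effects fitted on subsets of the libraries, with pairs within a region in purple, where all 6 values lie between -0.0095 and 0.0296.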

How the data were processed

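Counts per gene were made by the authors, who demultiplexed BRB-seq reads of 70 bases (bcl2fastq), mapped them to GRCm38/mm10 with STAR and counted them with HTSeq 0.9.1, the last per the labels, and who removed PFC samples of poor quality. The deposited table holds unnormalized counts of 11121 genes, of which 11120 have a symbol in GENCODE, with 12.9% of values at 0 and at least 155 counts for every gene. Here the counts were fitted in R 4.3.3 by edgeR 4.0.16 after TMM normalization, using its default filter by group (11025 genes) and its quasi-likelihood test, for treatment with region as a covariate, for each region alone and for their interaction. P-values were adjusted by Benjamini-Hochberg over all genes tested. One value per library was compared by two-sided permutation within region (100000 resamples). Log2 CPM in group summaries had a prior count of 2, and the plot of levels adds 1 to the CPM.

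Genes named are those with a p below 0.05 and one direction in both regions, up to 5 with opposite directions by interaction p, the 3 of smallest p in each described list, the mtDNA genes, Ddit4 and Tmsb4x. Rpl28, Rspo2, Rab31, Ttr, Nlk and the markers of region and of libraries that stand apart lie outside this rule and were chosen after their values were seen. Some genes that the rule names are not reported here. The members and lists were chosen with earlier results of these data known. Copies were sought as 70-base windows of the last 500 bases of a transcript. Alternatives were DESeq2 1.42.0, other normalizations and filters, sva 3.50.0, covariates, replicate blocks, limma-voom of limma 3.58.1, subsets of libraries and each library left out. The tests were tested on simulated data.

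Whether replicate numbers pair the libraries of one mouse is not stated. Libraries of one treatment and number in the PFC and the NAc deviated from their group means with low correlations. These lay between -0.053 and 0.054 in CTR and between -0.043 and 0.063 in mCRS. The regions of one mouse need not deviate alike, so these values do not settle the pairing. The number was used as a block in alternatives only. Promoters are from RefSeq (GRCm38.p6), and 3 of the 11 genes, Txnl1, Rps29 and Calm2, had no entry.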

Additional observations from a re-analysis of the deposited data

Results flagged for a closer look

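The change of the mtDNA share of all counts with mCRS differed between regions. It was 3.16 percentage points in the PFC and 0.331 points in the NAc, and the difference of 2.83 points had a two-sided permutation p of 0.0461. The effect on Rspo2, which encodes a secreted enhancer of Wnt signalling, differed by 8.2133 on the log2 scale between the PFC and the NAc (95% interval 5.32 to 11.11, edgeR interaction FDR 0.00211), the only interaction at an FDR below 0.05 among 11025 genes. In the PFC it had 877 counts in 13 of 15 CTR libraries and 1532 counts in 14 of 15 mCRS libraries, a log2 fold change of 1.03 (p = 0.16). In the NAc it had 290 counts in 7 of 16 CTR libraries and 1 count in 1 mCRS library, a ratio per count of 0.00417 (95% interval 0.000105 to 0.0234, counting error only). Its highest level in a NAc CTR library was 116 CPM.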

How the results depend on the processing

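Depth limits single genes most: the median SE of a log2 fold change was 0.78 in the least abundant of 5 bins and 0.171 in the most abundant. No gene passed an FDR of 0.05 in the other edgeR settings with all libraries or in limma-voom, DESeq2 called 2 (1 when its p-values were adjusted over all genes), and edgeR without 1 library called 0 to 2. Genes with a p below 0.05 numbered 764 in limma-voom with a random replicate block (553 lower, 211 higher), which shifted the median of all genes to -0.10, and 313 to 369 without 1 library (155 to 197 higher, 149 to 184 lower). The weights of limma-voom ran away for abundant genes and were capped at their percentile 99, a choice made after seeing the data. The replicate number as a fixed block gave 0 genes at an FDR below 0.05, 271 lower ones at a p below 0.05, a median of all genes of -0.07 and 16 same-direction genes, 6 of them among the 11. Without 1 library the PFC gave 386 to 467 and the NAc 221 to 273 genes, and DESeq2 gave 377 in the NAc. Same-direction genes numbered 6 with the detected share as a covariate, 7 with 1 surrogate variable, 18 in DESeq2, 6 in libraries 1 to 8, 5 in libraries 9 and above, 1 at a p below 0.01, and 6 to 15 without 1 library, fewest without NAc mCRS 3. Opposite genes numbered 2 with at least 10 counts in 50% of libraries, 8 in libraries 1 to 8, 1 in libraries 9 and above, 0 at a p below 0.01, 3 without both libraries that stand apart, and 3 to 8 without 1 library. Pearson r between regions was 0.0116 with no filter, 0.008 with the stricter filter, 0.0131 with the detected share, 0.0076 with the surrogate variable, 0.0335 with the replicate block, 0.025 in DESeq2, 0.0014 in libraries 1 to 8, 0.0111 without both libraries that stand apart, 0.032 for signed z, 0.0096 above the median abundance, -0.0265 for the 500 most abundant genes, 0.0128, -0.0269, 0.0134, 0.0013 and 0.0534 in the 5 bins of abundance, and -0.0037 to 0.0113 without 1 library. Between subsets of the numbering it was 0.0091 within the PFC, 0.0296 within the NAc and 0.0014, 0.0228, -0.0095 and 0.0033 across regions. The mtDNA share rose by 1.5 to 1.95 points without 1 library, and its difference was 0.628 in libraries 9 and above. The detected share differed by -3.19 points over filtered genes (p = 0.0515) and by -3.87 to -2.72 without 1 library. Signs reversed for Cct8 (0.0289 in DESeq2, -1.2801 to 0.0194 without 1 library, the latter without PFC CTR 1), Bdnf (-0.1353 in DESeq2, -0.2232 in libraries 1 to 8, -0.105 to 1.1438 without 1 library, the former without PFC mCRS 9), Atp1b2 (0.0603) in libraries 9 and above, and mt-Nd6 (-0.1089 in libraries 1 to 8). Apart from PFC CTR 1 and PFC mCRS 9, which hold much of the counts of Cct8 and Bdnf, the cause was not tested. List medians near 0 changed sign in at least one alternative, namely ATF4 targets, CCT, antioxidant enzymes, astrocytes, glucocorticoid targets, immediate early genes, microtubule genes, channels and the sodium pump. So did that of complex II, at 0.06 in libraries 9 and above. Those of mtDNA genes, complexes III to V, ribosomal proteins and protein import kept their sign in both regions in the 14 other fits of the lists, but not their size. Over both regions the median of mtDNA genes was 0.09 in libraries 9 and above. The surrogate variable brought complex IV to 0.07 in the PFC and protein import to -0.03 over both regions.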
